A study of Mus musculus with 6 samples.

Results

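The proteins of the cytosolic ribosome were followed as a group of genes in murine bone marrow-derived macrophages. Members were chosen by name alone, as gene names of the form Rpl or Rps followed by a number, with Rplp0, Rplp1, Rplp2 and Rpsa added and the Rps6k kinases left out. This gave 84 gene names on 188 probes and 197 spots, of 34787 gene names on 55681 probes and 59305 non-control spots of the array. The macrophages were grown for 7 days in medium conditioned by L929 cells from bone marrow of female C57BL/6 mice, whose age the labels give as 6 to 8 weeks. The methods of the study differ from the labels here, naming the J substrain and an older age. There were 3 groups. Untreated cells received no stimulus. The LPS group was stimulated for 4 h with lipopolysaccharide, the bacterial ligand of TLR4. The LPS+USP7i group was stimulated in the same way 30 min after 10 µM of HBX41,108, an inhibitor of the deubiquitinase USP7. The series text gives the LPS dose as 100 ng/ml, while the sample labels give 100 ng/µl. Whether the cells given LPS alone also received the solvent of the inhibitor is not stated in the sources used here, and there was no group with the inhibitor alone. Each group was measured on 2 one-color arrays from independent experiments.

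A ribosome is built from a small 40S and a large 60S subunit, each an assembly of ribosomal RNA and a fixed set of ribosomal proteins. Growing cells hold the mRNAs of these proteins at very high levels and translate them together, because most of the mRNAs begin with a run of pyrimidines, the terminal oligopyrimidine (TOP) element, through which the mTOR pathway acts on their translation by LARP1. Several ribosomal proteins also act outside the ribosome. RPL5, RPL11 and RPL23 bind MDM2, the ubiquitin ligase of p53 that USP7 deubiquitinates, RPS3 binds NF-κB p65, and RPL13A silences translation of inflammatory mRNAs in myeloid cells.

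All 6 arrays lay on 1 slide read in 1 scan. Each group had a slide row of its own (row 1 for untreated, 2 for LPS and 4 for LPS+USP7i), so row and treatment cannot be told apart, and replicate 1 and 2 of each group lay in columns 1 and 2. Between 25002 and 27467 of the 59305 spots were well above background, and no spot was saturated. All 9 macrophage markers were well above background on the 6 arrays, as were 0 of 4 NK cell, 0 of 6 fibroblast, 0 of 4 erythroid, 1 of 4 endothelial, 2 of 5 B cell, 1 of 5 dendritic cell and 4 of 7 neutrophil markers. In the T cell list, Cd3e, Cd4 and Lck were well above background on all arrays and Cd3g and Cd8a on none, and the summed level of the list on the log2 scale was 11.04 to 11.16 in untreated, 12.06 to 12.11 in LPS and 11.10 to 11.40 in LPS+USP7i cells, of which Lck carried the difference. The dendritic cell list, of which Siglech was well above background and Flt3, Xcr1 and Clec9a were on no array, summed to 15.22 to 15.46 in untreated, 14.60 to 14.63 in LPS and 15.08 to 15.65 in LPS+USP7i cells. The macrophage list summed to 19.46 to 19.48, then 19.47 to 19.52, and with the inhibitor 19.17 to 19.27. Their part in the results was not tested. Levels below are log2 fluorescence after quantile normalization unless another scaling is named, and a gene is represented by the probe with its highest mean signal. The representing probe was well above background on all 6 arrays for 82 of the 84 genes. The exceptions were Rpl3l, the muscle paralogue of Rpl3, and Rpl10l, a paralogue used in the testis, which were not well above background on any array.

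The question for LPS against untreated cells was whether a 4-h inflammatory stimulus changed the mRNAs of the ribosomal proteins. On the quantile scale they lay lower after LPS, as a tight block, by a median log2 difference of -0.33 over the 84 genes, a 1.26-fold change, whereas under 75th percentile scaling the same median was 0.24, that is, higher. The median level of the 82 detected genes was 16.81 and 16.80 on the untreated arrays, 16.41 and 16.56 on the LPS arrays, and 16.65 and 16.71 on the LPS+USP7i arrays. On this scale the 3 groups did not overlap, and LPS was lowest. Within slide column 1 the median difference of the 84 genes was -0.35, and within column 2 it was -0.32. Of the 84 genes 79 had a negative and 5 a positive difference, and in 76 both LPS arrays lay below both untreated arrays, against 29.9% of all genes. By limma with Benjamini-Hochberg adjustment over all probes, 19 fell and 1 rose, against 12.8% and 7.98% of all 34786 genes tested. The p-values measure only the spread between 2 arrays per group, and 1 array decided the count. It was 0 without untreated replicate 1 or without LPS replicate 1, 1 without untreated replicate 2, 2 without LPS replicate 2, and 10 without either LPS+USP7i array, while the median stayed between -0.39 and -0.27. In cultures measured whole, fewer cells of a type and less RNA per cell cannot be told apart.

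Direction and size depended on how the arrays were scaled. The median over all genes was near 0 under quantile normalization and 0.40 under 75th percentile scaling. Scaling on the E1A spike-in probes gave a ribosomal protein median of -0.18 for LPS against untreated cells, with all genes at -0.01, but the arrays overlapped there. On the spike-in scale the median level of the 82 genes was 16.78 and 16.91 in untreated, 16.43 and 17.00 in LPS, and 16.27 and 16.51 in LPS+USP7i cells. Cyclic loess gave -0.11, and the deposited table gave -0.32. Called genes went from 19 lower and 1 higher to 0 lower and 4 higher with the 75th percentile, where 11.6% of all genes were called lower and 34.9% higher, to 1 and 1 with cyclic loess, and to none with the spike-ins or the deposited table. The block lay below the median of all genes under each of these scalings. The members' median minus that of all genes was -0.33 on the quantile scale, -0.17 with the 75th percentile and with the spike-ins, -0.27 in the deposited table and -0.13 with cyclic loess.

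**Figure D1:**
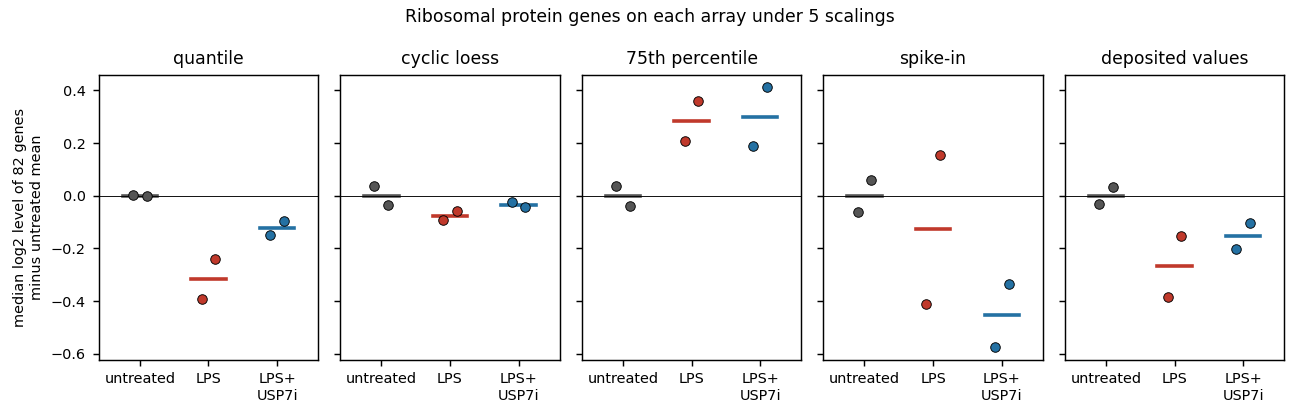
Median log2 level of the 82 ribosomal protein genes well above background on all arrays, minus the mean of the untreated arrays, under 5 scalings. Points are arrays and bars are means of 2; after LPS the level is lower with quantile normalization, cyclic loess and the deposited values, higher with the 75th percentile, and overlaps the untreated arrays with the spike-ins.

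Other genes with a signal as bright as the ribosomal proteins shifted by nearly the same amount. The 882 other genes with a mean log2 signal over 15 had a median of -0.32 for LPS against untreated cells, 0.18 for LPS+USP7i against LPS and -0.10 for LPS+USP7i against untreated cells. The 84 ribosomal protein genes had -0.33, 0.19 and -0.13. The part of signal level in the block's shift was not tested. By SD the members were less spread than these bright genes. For LPS against untreated cells the SD among the 82 detected members was 0.18, against 0.88 among the 882 other bright genes and 1.11 among 15530 other detected genes. Of the 82 members 78 lay within 0.25 of the members' median. For LPS+USP7i against LPS the SDs were 0.13, 0.43 and 0.76. By quartiles the gap was smaller. The members' interquartile range was 0.11 for LPS against untreated cells. Other genes had quartiles of -0.38 and -0.17 at a signal of 16 to 17, and -0.35 and -0.14 at 17 to 18. For LPS+USP7i against LPS the range was 0.13, and the quartiles were 0.059 and 0.29, then 0.089 and 0.26. These SDs and quartiles are descriptions across genes, which are not independent replicates.

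**Figure D2:**
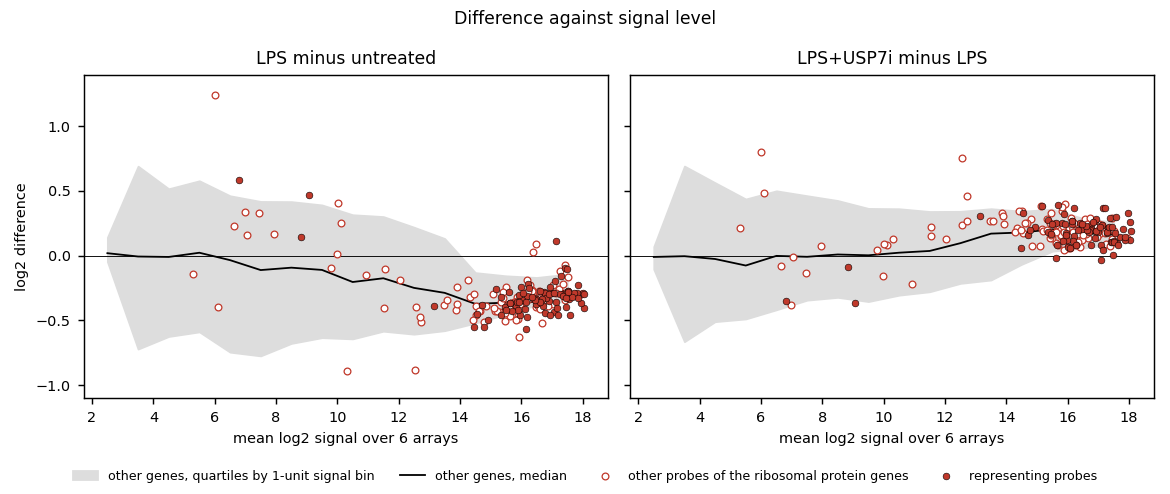
Log2 difference against mean log2 signal over 6 arrays for LPS minus untreated (left) and LPS+USP7i minus LPS (right), with the median and quartiles of other genes in bins of 1 log2 unit. Ribosomal protein probes (red) crowd at 14 to 18 and follow the median of other bright genes, below 0 on the left and above 0 on the right on the quantile scale (above 0 on the left under 75th percentile scaling, below 0 on the right with the spike-ins), while their dimmer probes scatter.

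Both subunits are in the block. The 43 proteins of the 60S subunit had a median of -0.33 after LPS, ranged from -0.57 to 0.12, and 6 fell. The 30 of the 40S subunit had a median of -0.33, ranged from -0.47 to -0.10, and 9 fell. The share of all genes that fell was 12.8%, and the difference between the subunits was not tested. The 3 acidic stalk proteins, which recruit elongation factors to the ribosome, had differences of -0.36 for Rplp0, -0.40 for Rplp1 and -0.28 for Rplp2, with adjusted p-values of 0.32, 0.18 and 0.11. Among ribosomal proteins whose names lie outside the rule, Fau differed by -0.34 and Rack1 by -0.24, neither past the test, and Rpl36al fell by 0.53 (adjusted p = 0.015), a call lost in 9 of 20 alternatives, among them the 75th percentile, cyclic loess and spike-in scalings and the removal of any untreated or LPS array. The arrays were also scaled on the median of the 82 genes, a setting chosen after the data were seen. On that scale 0 of the 82 passed the test in any comparison. The lowest adjusted p was 0.081 for LPS against untreated, 0.19 for LPS+USP7i against LPS and 0.082 for LPS+USP7i against untreated cells, while 22.4%, 7.42% and 14.8% of all genes passed on that scale. At an unadjusted p under 0.05, 1 of the 82 passed in each comparison. The 82 genes set the median themselves, and Rpl24, at 0.37 from it after LPS, did not pass (adjusted p = 0.081). A failure to pass therefore does not show that no member departed.

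**Figure D3:**
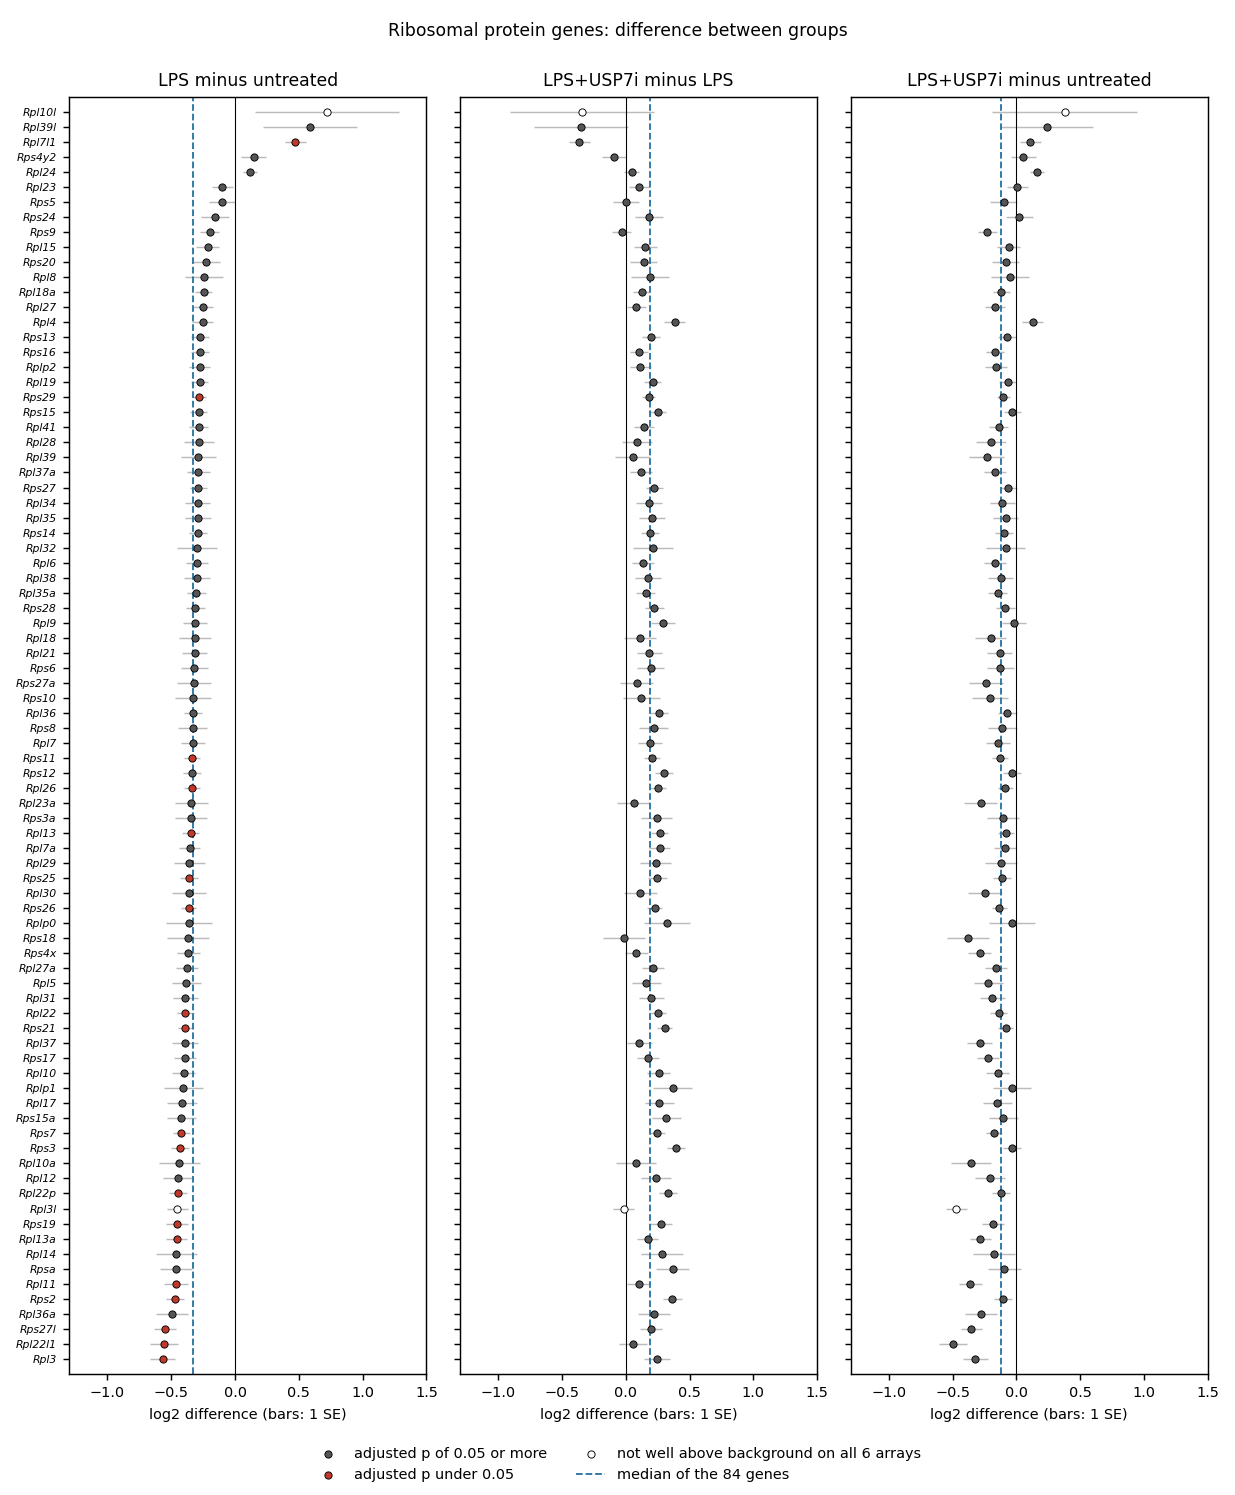
Log2 difference of each of the 84 genes, with bars of 1 SE, in the 3 comparisons, sorted by LPS minus untreated on the quantile scale. Most points lie near the dashed median of -0.33 (left), 0.19 (middle) and -0.13 (right), which change sign under 75th percentile scaling on the left and right and under spike-in scaling in the middle; Rpl7l1 is the filled red point above 0.

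Among those that fell, Rpl3, which shapes the peptidyl transferase center, had the lowest difference. It stood at 16.43 and 16.44 in untreated, 15.84 and 15.90 in LPS, and 15.999 and 16.23 in LPS+USP7i cells. Both LPS arrays lay below all the others. The difference was -0.57 ± 0.10 (SE, adjusted p = 0.03). The files place this probe at chr5:10559558-10559617 (mm9, plus strand) and the second Rpl3 probe at chr15:79908489-79908772, across an exon junction, and whether the brighter probe also reads a processed copy was not tested. The second probe fell by 0.49 (adjusted p = 0.012).

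Rps2, a 40S protein at the mRNA entry channel, stood at 16.32 and 16.46 in untreated, 15.93 and 15.91 in LPS, and 16.30 and 16.27 in LPS+USP7i cells. The LPS arrays lay below both other groups. It fell by 0.47 ± 0.07 after LPS (SE, adjusted p = 0.02). Rps3, the 40S protein that binds p65, stood at 15.81 and 15.90, then 15.45 and 15.40, and with the inhibitor 15.78 and 15.86. It fell by 0.43 (adjusted p = 0.03). Rpl13a, the silencer of inflammatory mRNAs, stood at 16.19 and 16.21, then 15.65 and 15.83, and with the inhibitor 15.94 and 15.89, and fell by 0.46 (adjusted p = 0.03). Under 75th percentile scaling 82 of the 84 members had a positive difference and none was called lower, so that these falls are on the quantile scale.

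Of the MDM2-binding proteins, Rpl11 stood at 17.83 and 17.93 in untreated, 17.35 and 17.48 in LPS, and 17.45 and 17.59 in LPS+USP7i cells. It fell by 0.46 ± 0.09 after LPS (SE, adjusted p = 0.04), a call kept in 6 of 20 alternatives. The calls of the other lowest members were kept in 11 for Rpl3, 10 for Rps2, 8 for Rpl22l1 and 11 for Rps27l. Rpl5, its partner in the 5S particle, stood at 14.89 and 14.95, then 14.42 and 14.66, and with the inhibitor 14.63 and 14.77, a difference of -0.38 that did not pass (adjusted p = 0.11). The representing probe of Rpl23 read 17.51 and 17.38, then 17.29 and 17.40, and with the inhibitor 17.44 and 17.46, so that untreated and LPS arrays overlapped (-0.10, adjusted p = 0.54). Relative to the members' median it differed by 0.16 (adjusted p = 0.39).

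Other members near the median did not pass the test. Rpsa, the laminin receptor precursor of the 40S subunit, differed by -0.46 (adjusted p = 0.094), Rps6, the subunit phosphorylated by S6 kinase, by -0.32 (adjusted p = 0.14), and Rps27a, made as a fusion with ubiquitin, by -0.32 (adjusted p = 0.23). At the upper edge of the block was Rpl24, which helps join the subunits. It read 17.05 and 17.05 in untreated, 17.16 and 17.16 in LPS, and 17.24 and 17.18 in LPS+USP7i cells, a difference after LPS of 0.12 (adjusted p = 0.31). Its other 2 probes, of which the files place 1 on another chromosome, gave 0.02 and 0.09. Rpl24 was chosen for mention after its values were seen.

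The paralogues did not follow a common course. Rpl7l1, an Rpl7-like protein of the nucleolus that takes part in making the 60S subunit, was the only member called higher on the quantile scale. It stood at 8.91 and 8.83 in untreated, 9.28 and 9.41 in LPS, and 9.02 and 8.94 in LPS+USP7i cells. Both LPS arrays lay above all the others. The difference was 0.47 ± 0.08 (SE, adjusted p = 0.03) after LPS and -0.36 (adjusted p = 0.083) for LPS+USP7i against LPS. It kept its sign in all 20 alternative settings and its call in 8 of them, among these the 75th percentile and cyclic loess. The call was lost in the other 12, among them spike-in scaling, the deposited values, the replicate block and the removal of any array. Relative to the members' median Rpl7l1 differed by 0.23 after LPS (adjusted p = 0.23). Rpl7 itself differed by -0.33 on the quantile scale (adjusted p = 0.099).

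Rpl22l1, the paralogue that can replace Rpl22 in the 60S subunit, stood at 14.95 and 14.68 in untreated, 14.27 and 14.26 in LPS, and 14.31 and 14.33 in LPS+USP7i cells. It fell by 0.55 (adjusted p = 0.04), and the LPS+USP7i arrays stayed near those of LPS, at a difference of 0.06 (adjusted p = 0.85). Rps27l, the p53-induced paralogue of Rps27, stood at 15.08 and 15.09, then 14.52 and 14.55, and with the inhibitor 14.82 and 14.64. It fell by 0.55 (adjusted p = 0.02), while Rps27 differed by -0.29 (adjusted p = 0.061). Rpl39l read 6.43 and 6.63, then 7.15 and 7.08, and with the inhibitor 6.26 and 7.27, a difference of 0.58 ± 0.37 (SE, adjusted p = 0.45), beside -0.29 for Rpl39 (adjusted p = 0.29). Its LPS+USP7i arrays lay on opposite sides of the untreated arrays. Rpl10, whose paralogue Rpl10l was not well above background, differed by -0.40 (adjusted p = 0.06). Rps4x differed by -0.37 (adjusted p = 0.071) and Rps4y2, now named Rps4l, by 0.15 (adjusted p = 0.47). Rpl3l is counted among the 19 that fell, but its signal was at background in both groups and no fold is given.

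Probes of paralogues did not share long runs: the longest run of identical bases between representing probes was 5 for Rpl22 and Rpl22l1, 6 for Rpl7 and Rpl7l1, and 8 for Rpl10 and Rpl10l. The exception was Rpl22p, named Gm13196 in RefSeq, whose probe shared 43 of its 60 bases with that of Rpl22. Rpl22p fell by 0.45 and Rpl22 by 0.39 (adjusted p = 0.02 and 0.03), and these probes cannot be told apart. The second probe of Rpl22p and that of Rpl22 shared no run of 20 or more bases with a probe of another name, and fell by 0.46 and 0.89 (adjusted p = 0.03 and 0.0053). In all, 17 of the 84 representing probes shared 40 or more bases in a row with a probe of another gene name, the Rpl22l1 probe among them with 54, and 12 genes had probes that the files place on more than 1 chromosome. That count misses probes placed away from the gene but all on 1 chromosome. The 4 Rps27 probes lie on chr9, while its RefSeq start window is on chr3. The representing Rps2 probe lies at chr17:42864841 (mm9), while its start window is at chr17:24720048 (GRCm38.p6). Signal from processed copies is therefore uncertain for many members.

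For LPS+USP7i against LPS, which asks what inhibition of USP7 changed in stimulated cells, the block lay slightly higher on the quantile scale, by a median of 0.19 (1.14-fold), and lower, by -0.31, under spike-in scaling, where all genes lay at -0.34. On the quantile scale differences were positive for 77 genes, and in 57 both LPS+USP7i arrays lay above both LPS arrays, against 26.8% of all genes. With the spike-ins 0 were positive and 84 negative, and with the 75th percentile 54 were positive and 30 negative. No member passed the limma test in either direction, against 5.52% of all genes called higher and 4.27% called lower. At an unadjusted p under 0.05, 26 members were higher and 1 lower, against 14.3% and 11.7% of all genes. The lowest adjusted p was 0.055, for Rps3. The 5 lowest adjusted p-values belonged to Rps3, with a difference of 0.39, Rps21 (0.31), Rps2 (0.37), Rpl22p (0.33) and Rpl4 (0.38), a protein of the exit tunnel whose adjusted p was 0.08. The 43 proteins of the 60S subunit had a median of 0.18, the 30 of the 40S subunit 0.21. Rplp0 differed by 0.33, Rplp1 by 0.37 and Rplp2 by 0.12, none past the test. Within slide columns 1 and 2 the median of the 84 genes was 0.19 and 0.19. The comparison shares the LPS arrays with the one above, so the opposite signs are not independent.

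For LPS+USP7i against untreated cells the median under 75th percentile scaling was 0.29, with 82 genes positive and 2 negative. On the quantile scale it was -0.13, with 76 genes negative and 8 positive. In 50 genes both LPS+USP7i arrays lay below both untreated arrays, against 29.4% of all genes. The test called 1 gene lower and 0 higher, against 8.71% and 6.16% of all genes. The 1 called was Rpl3l, at background in both groups; at an unadjusted p under 0.05, 9 were lower and 1 higher, against 16.6% and 12.2% of all genes. Under 75th percentile scaling 11 members were called higher and 0 lower, against 35% and 9.64% of all genes. Rpl22l1 had a difference of -0.50 (adjusted p = 0.066) and Rpl11 of -0.36 (adjusted p = 0.095). The second Rpl3 probe fell by 0.44 (adjusted p = 0.019).

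Of the 84 genes, 58 had more than 1 probe, up to 7, and 56 had 2 or more probes well above background on all arrays. In 48 of these 56 all such probes lay on the same side of 0 for LPS against untreated cells, with a median range between probes of 0.09. In 10 genes the probes differed by more than 0.5. Of the 17 member probes with a mean log2 signal under 11, 12 were higher and 5 lower after LPS, with a median of 0.17, whereas of the 166 brighter ones 3 were higher and 163 lower, with a median of -0.35. Other genes had medians of -0.08 (9954 genes at a mean log2 signal of 5 to 11) and -0.32 (882 genes over 15). On the scale of the members' own median, 3 genes had a probe that passed the test. Of the 188 probes, 2 passed as lower for LPS against untreated cells, where 22.4% of all genes passed. For LPS+USP7i against untreated cells 1 was higher and 1 lower, against 14.8% of all genes, and for LPS+USP7i against LPS 0 passed, against 7.42%. Within these 3 genes the probes differ in place and in signal. The part of place and of signal was not tested. Probes of these genes are shown by the first 30 of 60 bases, 5′ to 3′ in lower case. The representing probe of each is given second.
Rpl22, chr4:151708012-151708071 (mm9, plus strand): gctgtaaacaacattaaccctgggttgatt
Rpl22, chr4:151706515-151706574 (mm9, plus strand): ggaggaagacgaggattaggacacattggt
Rpl23, chr11:97638917-97638976 (mm9, minus strand): acaaaacacgcattcttttcaggtctttgc
Rpl23, chr11:97639350-97639409 (mm9, minus strand): gcagcattgcatgattctccagtgtatttg
Rps27a, chr11:29447939-29447998 (mm9, minus strand): aaagaaaccgagcgaacgagcaaatctggc
Rps27a, chr11:29445914-29445973 (mm9, minus strand): tggtgctggagtttttatgggaagccactt

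Rpl22 encodes an RNA-binding 60S protein known for its role in T cell development. Its probe 1497 bases downstream of the representing one read 10.83 and 10.90 in untreated, 9.97 and 9.97 in LPS, and 10.14 and 10.06 in LPS+USP7i cells. Both treated groups lay below the untreated arrays without overlap. It fell by 0.89 ± 0.07 after LPS (SE, adjusted p = 0.0053) and by 0.76 in LPS+USP7i against untreated cells (adjusted p = 0.01), while the representing probe fell by 0.39 and differed by -0.14. For LPS against untreated cells this call held in all 18 alternatives in which the probe could be fitted, and its difference lay between -1.22 and -0.80. The call for LPS+USP7i against untreated cells held in 16 of the 18 and was lost without either untreated array, at adjusted p-values of 0.054 and 0.063. After LPS this probe also passed on the scale of the members' own median, by -1.09 (adjusted p = 0.012), where 22.4% of all genes passed.

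Rpl23 had a probe 433 bases downstream of its representing one, printed on 10 spots. It read 12.78 and 12.99 in untreated, 11.82 and 12.18 in LPS, and 12.62 and 12.89 in LPS+USP7i cells. The LPS arrays lay below both other groups, which overlapped. It fell by 0.88 after LPS (adjusted p = 0.047), and by 0.76 on the scale of the members' median (adjusted p = 0.048), and the difference between LPS+USP7i and LPS, 0.75, did not pass (adjusted p = 0.099), but passed in 3 of 18 alternatives, with normexp, with dim probes left out and with the replicate block (adjusted p = 0.03, 0.038 and 0.042). The call after LPS was lost under the 75th percentile, cyclic loess and spike-in scalings, in a fit of 2 groups and on leaving out any array, although the sign held. The third Rpl23 probe differed by -0.22 (adjusted p = 0.35).

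Rps27a had a probe 2025 bases upstream of its representing one, toward the start of the gene. It read 4.89 and 4.93 in untreated, 5.69 and 6.62 in LPS, and 6.70 and 7.21 in LPS+USP7i cells. Both treated groups lay above the untreated arrays. The difference was 1.24 ± 0.37 after LPS (SE, adjusted p = 0.12) and it rose by 2.04 in LPS+USP7i against untreated cells (adjusted p = 0.044), where the representing probe differed by -0.24. The third Rps27a probe differed by -0.27 after LPS and -0.02 with the inhibitor against untreated cells. The rise lost its call on leaving out either untreated or either LPS+USP7i array and under spike-in scaling, at adjusted p-values of 0.058 to 0.17. An upstream probe of Rpl30, 1818 bases from the representing one, gave 0.41 after LPS (adjusted p = 0.11) where the other 2 probes gave -0.36 and -0.50. Whether these probes read another transcript start, unspliced RNA or another gene was not tested.

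**Figure D4:**
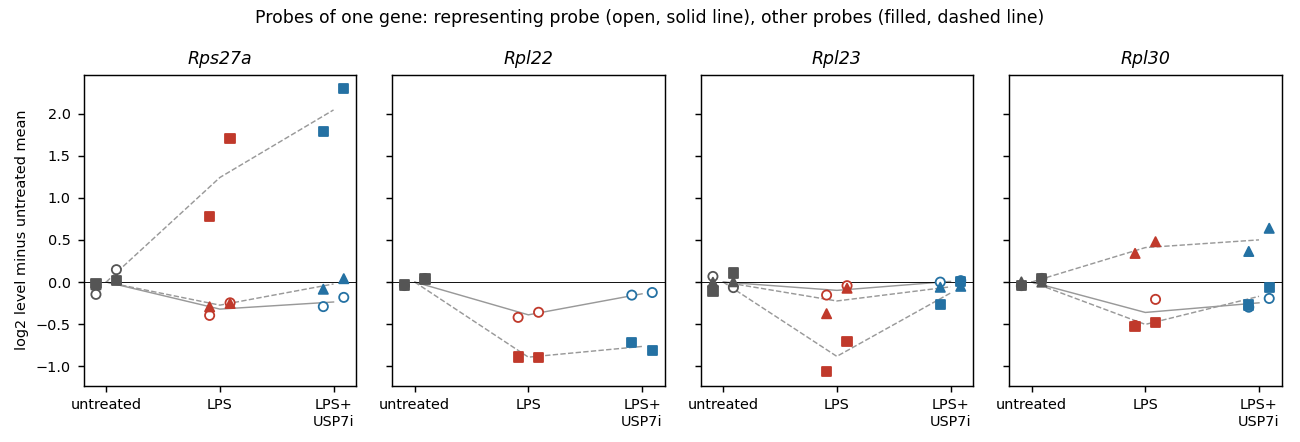
Log2 level on each array minus the untreated mean for all probes of Rps27a, Rpl22, Rpl23 and Rpl30; open symbols and solid lines are the representing probes, filled symbols and dashed lines the other probes, and lines join group means. The upstream Rps27a probe reaches a mean of 2.04 with LPS+USP7i and the downstream Rpl22 probe -0.89 with LPS, while the representing probes stay between -0.39 and 0.01.

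The start sites were searched for the pyrimidine run. RefSeq start-site windows (GRCm38.p6, 250 bases before to 50 from the start) matched 62 of the 84 names. A run of 8 or more C or T on the transcribed strand within 15 bases of the annotated start was found in 26 of the 62 (41.9%), against 12.5% of 27025 genes, and a run of 5 or more from the start base itself in 16 (25.8%), against 5.28%. Where a gene had several windows, the one with the longest run from the start was taken. The 30 bases around the start are shown for 3 members with a run and for 3 without, to let the element be seen; capitals mark the longest run of C or T.
Rpl27a, chr7:109519180-109519209, plus strand: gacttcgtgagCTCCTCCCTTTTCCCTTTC
Rpl35, chr2:39005117-39005146, minus strand: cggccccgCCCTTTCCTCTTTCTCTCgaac
Rps6, chr4:86857353-86857382, minus strand: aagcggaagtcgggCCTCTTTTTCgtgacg
Rpl11, chr4:136053379-136053408, minus strand: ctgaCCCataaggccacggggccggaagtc
Rpl24, chr16:55966260-55966289, plus strand: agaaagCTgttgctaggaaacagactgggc
Rpl7l1, chr17:46782642-46782671, minus strand: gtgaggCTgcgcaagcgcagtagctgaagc

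The 26 genes with a run of 8 or more near the start had a median log2 difference of -0.32 after LPS, ranging from -0.55 to -0.16, and 0.18 for LPS+USP7i against LPS. The 36 without it had medians of -0.35 and 0.21 and, leaving out Rpl10l and Rpl3l, which were at background, ranged after LPS from -0.50 to 0.58. The difference between these sets was not tested, and the medians of the 36 include both genes. Among the 36 of the 62 without such a run were the 4 with a positive difference on the quantile scale, Rpl24, Rpl7l1, Rpl39l and Rpl10l. Of these 4 only Rpl7l1 passed the test, and Rpl10l was at background. Rpl11, which fell, also had no such run. A missing run says only that these letters are not in this window.

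Genes that work with the ribosomal proteins were read from 7 lists, beside 12.8% of all genes lower and 7.98% higher after LPS, and 5.52% higher and 4.27% lower in LPS+USP7i against LPS. Under 75th percentile scaling the shares were 11.6% and 34.9%, then 4.93% and 4.07%. In a fit of LPS+USP7i and LPS alone, and without either untreated array, 0 genes of the array passed in LPS+USP7i against LPS, so that each such call below was lost there. The count of genes called higher in that comparison moved by over 1.5 times in 9 to 15 of 20 alternatives for each list with a call. Of the 78 mitochondrial ribosomal proteins, which form a separate ribosome for the mitochondrial genome, 33 fell and 1 rose after LPS, with a median of -0.36, and 13 fell and 5 rose under 75th percentile scaling. The lower count after LPS moved by over 1.5 times in 7 and the higher in 5 of 20 alternatives. Mrpl41 stood at 12.73 and 12.82 in untreated, 11.20 and 11.53 in LPS, and 11.89 and 11.77 in LPS+USP7i cells, and fell by 1.41 (adjusted p = 0.0087). Mrpl49 fell by 1.34 (adjusted p = 0.0063) and Mrps26 by 1.24 (adjusted p = 0.029). With the inhibitor, 5 rose and 1 fell against LPS. Mrps6 rose by 1.15 (adjusted p = 0.01), from 11.97 and 11.98 to 13.12 and 13.12, Mrpl47 rose by 0.73 (adjusted p = 0.025), and Mrpl52 fell by 0.91 (adjusted p = 0.017).

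The list for the TOP mRNA class held 20 genes, translation factors and others such as Npm1, Hnrnpa1 and Nap1l1. Of these 20, 9 fell and 1 rose after LPS, with a median of -0.37. Under 75th percentile scaling 2 fell and 4 rose, a share of rises below the 34.9% of all genes. The lower count moved by over 1.5 times in 13 and the higher in 15 of 20 alternatives. Eef1g, a subunit of the elongation factor that exchanges guanine nucleotides, stood at 15.54 and 15.51 in untreated, 13.91 and 13.86 in LPS, and 15.18 and 15.07 in LPS+USP7i cells. The LPS arrays lay below all others. It fell by 1.64 after LPS (adjusted p = 0.003) and rose by 1.24 with the inhibitor against LPS (adjusted p = 0.011). Eif4a2, an RNA helicase of initiation, fell by 0.90 (adjusted p = 0.014) and rose by 0.68 (adjusted p = 0.045), the only other of the 20 that passed in LPS+USP7i against LPS. Both inhibitor calls were lost without either untreated array. Nap1l1, a histone chaperone that is also in the list of ribosomal protein chaperones, fell by 0.83 after LPS (adjusted p = 0.014).

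Of the 50 ribosome biogenesis factors, 10 rose and 4 fell after LPS, and 11 rose and 3 fell in LPS+USP7i against LPS; under 75th percentile scaling the counts were 15 and 3, then 7 and 2. The 4 lower and, under that scaling, the 15 higher are shares below those of all genes. Wdr43, a factor of the small subunit processome, stood at 10.13 and 10.16 in untreated, 12.54 and 12.28 in LPS, and 11.85 and 11.95 in LPS+USP7i cells, and rose by 2.27 (adjusted p = 0.0033). Rrs1, which loads the 5S particle, rose by 1.74 (adjusted p = 0.0027), while Imp3, another processome protein, fell by 1.69 (adjusted p = 0.0051). Rises with the inhibitor were measured in Gnl3, encoding nucleostemin, from 9.26 and 9.41 to 11.11 and 10.83 (1.64, adjusted p = 0.015), in Riok2, a kinase of 40S maturation (1.24, adjusted p = 0.028), and in Wdr75 (1.14, adjusted p = 0.016), all lost without either untreated array. Of the 14 genes of RNA polymerase I and its factors, 2 rose and 3 fell after LPS and 3 rose with the inhibitor, counts that moved by over 1.5 times in 11, 9 and 9 of 20 alternatives. Cd3eap, a polymerase I subunit now named Polr1g, fell by 1.53 (adjusted p = 0.0073) and rose by 0.90 (adjusted p = 0.04). Twistnb rose by 0.72 (adjusted p = 0.017) and Ubtf by 0.71 (adjusted p = 0.033) after LPS. With the inhibitor Taf1a, which was well above background on 4 of 6 arrays, rose by 1.55 (adjusted p = 0.034) and Taf1d by 0.85 (adjusted p = 0.047).

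Of the 17 regulators of ribosomal protein synthesis, 6 fell and 3 rose after LPS, and 4 rose and 1 fell in LPS+USP7i against LPS. Larp1, the protein that binds the TOP element, stood at 13.18 and 13.24 in untreated, 14.89 and 14.79 in LPS, and 13.46 and 13.9999 in LPS+USP7i cells. The LPS arrays lay above all others, and it rose by 1.63 (adjusted p = 0.014). Eif4ebp2, an inhibitor of cap-dependent initiation, fell by 1.64 (adjusted p = 0.011), and Eef2k, the kinase that inactivates elongation factor eEF2, by 1.55 (adjusted p = 0.0049). In LPS+USP7i against LPS, Eif4ebp1 rose by 1.44 (adjusted p = 0.013), Eef2k by 0.94 (adjusted p = 0.025) and Eif4e, the cap-binding factor, by 0.87 (adjusted p = 0.027), calls that were lost without either untreated array. The higher count moved in 9 and the lower in 11 of 20 alternatives. Of 9 ribosomal protein chaperones, 3 fell and 1 rose after LPS, counts that moved by over 1.5 times in 1 and 10 of 20 alternatives. Pdcd2l fell by 0.99 (adjusted p = 0.0047) and rose by 0.56 with the inhibitor (adjusted p = 0.025), and Tsr2, which delivers Rps26 to the ribosome, fell by 0.77 (adjusted p = 0.012).

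**Figure D5:**
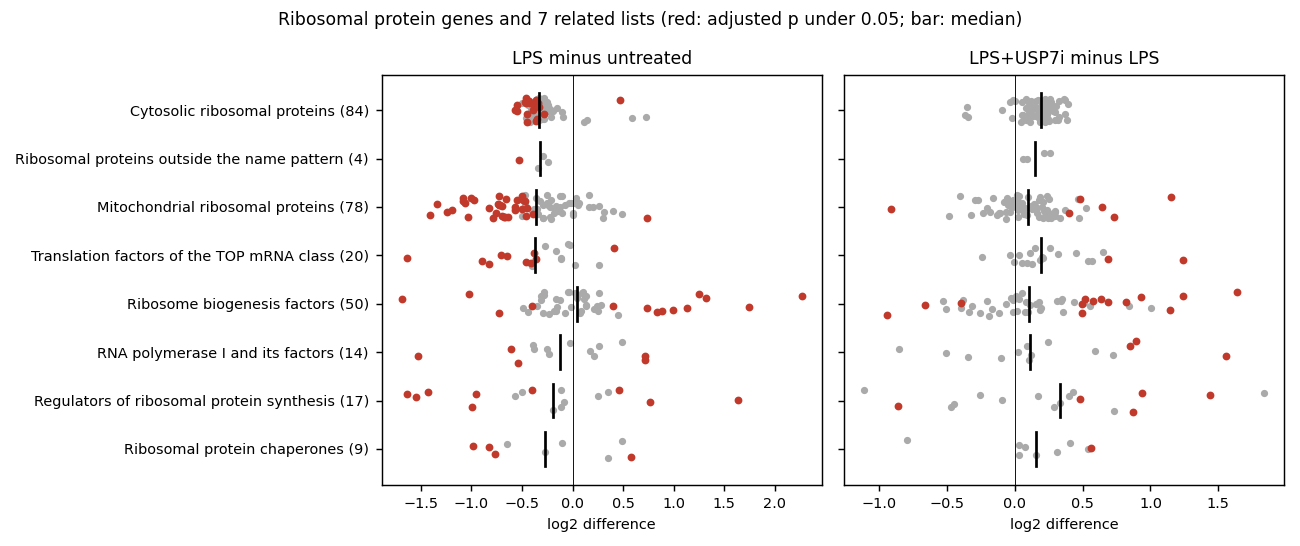
Log2 difference of the 84 ribosomal protein genes and of 7 lists of related genes, for LPS minus untreated (left) and LPS+USP7i minus LPS (right); red points have an adjusted p under 0.05 and bars are medians. The cytosolic ribosomal proteins form a narrow cloud, at a median of -0.33 and 0.19 on the quantile scale (0.24 under 75th percentile scaling on the left, -0.31 with the spike-ins on the right), and the mitochondrial ones spread below 0 on the left.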

How the data were processed

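The 6 scanner files hold intensities of 1-color (Cy3) Agilent 8x60K arrays, which the authors' scanner software deposited after background subtraction and detrending, with no scaling between arrays. The value table deposited by the authors holds log2 values after quantile normalization with limma, a tool also named in the submitters' processing notes, and was used as an alternative. From the intensities, log2 processed signals were quantile normalized over non-control spots, spots marked as outliers were left out, spots of a probe were averaged, and limma 3.58.1 in R 4.3.3 was fitted to the 3 groups of 2 arrays, with Benjamini-Hochberg adjustment over 55680 probes and a threshold of 0.05. The scripts were tested on simulated data. The exact permutation test of 2 arrays against 2 cannot go below 0.33, so no such test is given, and 6 arrays limit the precision.

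Probe names were updated by accession for 26762 probes, by symbol for 3819 and by synonym for 639, and 24461 kept their original one. Positions of probes are on mm9, as deposited, and start windows are from RefSeq (GRCm38.p6). The members, the lists and the genes to name were chosen with earlier results of these data known. Named were, per comparison, up to 5 detected members past the threshold in each direction with the lowest and the highest difference, the paralogue pairs, the MDM2-binding and stalk proteins, Rps3, Rps6, Rps27a, Rpl13a and Rpsa, members whose probes disagreed, and up to 3 genes per list and comparison. Rpl36al, Fau, Rack1, Rps21, Rpl4, Rpl24 and the Rpl22, Rpl23, Rps27a and Rpl30 probes were singled out after their values were seen.

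Alternatives were 75th percentile, cyclic loess and spike-in scaling, normexp background correction, the deposited values, a filter on dim probes, no removal of outlier spots, fits of 2 groups, a trended prior, a replicate block, each array left out, the mean of a gene's probes, names through RefSeq accessions only, and a minimum log2 difference of 0.5. Scaling on the members' median and comparison with other genes over a log2 signal of 15 were chosen after seeing the data.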

Additional observations from a re-analysis of the deposited data

How the results depend on the processing

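Keeping outlier spots, a dim-probe filter, the mean of a gene's probes and RefSeq names kept the count of 19 lower members for LPS against untreated cells within 1.5 times. It became 0 with 75th percentile and spike-in scaling, the deposited values and scaling on the members' median, 1 with cyclic loess, 34 with normexp, 12 with a trended prior, 10 in a fit of 2 groups, 3 with a minimum difference of 0.5, and 0 to 10 on leaving out an array. The 1 higher member became 4 with the 75th percentile and 0 with spike-ins, deposited values, the fit of 2 groups, the replicate block, the minimum difference, members' scaling and on leaving out any array (0 to 0). The median of -0.33 was 0.24 (75th percentile, reversed), -0.11 (cyclic loess), -0.18 (spike-ins) and -0.39 to -0.27 with an array left out. Less the median of all genes it was -0.17 (75th percentile), -0.13 (cyclic loess), -0.17 (spike-ins), -0.27 (deposited), -0.14 (dim probes left out), -0.17 (members' scaling), -0.016 (against other bright genes) and -0.39 to -0.25 with an array left out. Under the 75th percentile Rpl22l1 reversed to 0.051, Rps27l to 0.066, Rps2 to 0.063 and Rpl11 to 0.17. For LPS+USP7i against LPS, members called higher went from 0 to 5 with normexp and 1 with a trended prior, and over the whole array no gene was called in the fit of 2 groups or without either untreated array. The median of 0.19 was 0.028 (75th percentile), 0.054 (cyclic loess), -0.31 (spike-ins, reversed), 0.14 (deposited) and 0.13 to 0.24 with an array left out, and less all genes 0.026 (75th percentile), 0.058 (cyclic loess), 0.026 (spike-ins), 0.13 (deposited), 0.13 (dim probes left out), 0.026 (members' scaling), 0.0081 (other bright genes) and 0.12 to 0.25. For LPS+USP7i against untreated cells, members called higher went from 0 to 11 with the 75th percentile, where 35% of all genes were. The 1 lower became 0 with the 75th percentile, spike-ins, deposited values, the fit of 2 groups, the replicate block, the minimum difference, members' scaling and any array left out (0 to 0), 3 with the mean of probes and 2 with RefSeq names. The median of -0.13 was 0.29 (75th percentile, reversed), -0.042 (cyclic loess), -0.46 (spike-ins), -0.16 (deposited) and -0.19 to -0.093 with an array left out, and less all genes -0.057 (cyclic loess), -0.033 (dim probes left out), -0.021 (other bright genes) and -0.19 to -0.083. The cause was not tested. Replicates 1 and 2 share a number and a slide column. Their differences correlated at 0.40 to 0.47 between groups across 20705 probes, which are not independent, and the replicate block called 19 members lower after LPS, of which 12 were among the 19 without it.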
